A study of Drosophila melanogaster with 2 samples.

Results

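The phototransduction cascade genes described here are 10 genes of the Drosophila photoreceptor, norpA, trp, trpl, inaC, inaD, Arr1, Arr2, ninaC, ninaA and rdgA, taken by gene symbol from a table of 15906 features. All 10 had a feature of their own, and all 10 had a mean of at least 1 FPKM (fragments per kilobase of transcript, relative to the number of fragments mapped) over both libraries, as did 11936 features in all. The mean of ninaA reached 1 only through its higher value in the miR-305 library. RNA came from whole bodies of 15-day-old adult male Drosophila melanogaster. The control library came from flies with the daughterless driver alone (da-Gal4/+), and the miR-305 library from flies that also carried a UAS transgene for miR-305, which this driver switches on throughout the body (da-Gal4/UAS-miR305). Both genotypes therefore carried the driver, and the transgene without it was not analysed here. How many flies made up a library is not given in the labels. Each group had 1 library, so no difference below has a replicate check or a test, and the spread between flies is unknown. The mir-305 stem-loop was listed at 0 in the control and at 546 FPKM with the transgene.

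In fly photoreceptors, light turns rhodopsin into an active form that drives a Gq protein and phospholipase C. The lipid signal opens cation channels of the TRP family, while a scaffold protein holds channel, phospholipase and protein kinase C together in the light-sensing membrane, the rhabdomere. Arrestins bind the active rhodopsin and end the response, and a diacylglycerol kinase takes part in the recovery of the lipids. Several of these genes were named after mutants with an altered electrical response to light or a degenerating retina.

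Most of the cascade had lower FPKM in the miR-305 library, by modest amounts. Of the 10 genes, 8 had a log2 ratio below 0, against 53.6% of the 11936 features, and 2 had one above 0, against 46.4%. The log2 ratio is that of FPKM + 1 in the miR-305 library over control. These 8 were 12.8% to 40.0% lower in FPKM. The median log2 ratio over the 10 genes was -0.28, against -0.03 over all features, whose middle 50% lay between -0.24 and 0.18. None of the 10 genes was at least 2-fold lower (0 of 10, against 1.74% of all features) or at least 2-fold higher (0 of 10, against 2.36%) on this scale. At 1.5-fold, 1 gene was lower, norpA (5.97% of all features), and 1 was higher, ninaA (6% of all features). With 1 library per group, a difference between any 2 libraries cannot be told from an effect of miR-305. In whole-body RNA, fewer photoreceptors, less RNA per photoreceptor and more RNA from other tissues cannot be told apart either.

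The cascade spanned a wide range of levels in both libraries. The arrestin genes were the most abundant members. Arr2 had 1243.75 FPKM in the control library and 963 in the miR-305 library, which placed it at rank 132 and rank 186 among all 15906 features. The rarest was ninaA, with 0.95 and 2.11 FPKM. In the control library the order from high to low was Arr2, Arr1, trp, ninaC, trpl, inaD, norpA, inaC, rdgA and ninaA. The miR-305 library had the same order except that norpA lay below inaC, and inaC lay above inaD. With 1 library per group, no pair of neighbours in this order can be said to differ beyond a spread. The 10 genes together had 2090 FPKM in the control library, or 0.216% of all FPKM, and 1677 FPKM in the miR-305 library, or 0.142%. Arr1 and Arr2 made up 82.6% and 82.5% of these sums.

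**Figure D1:**
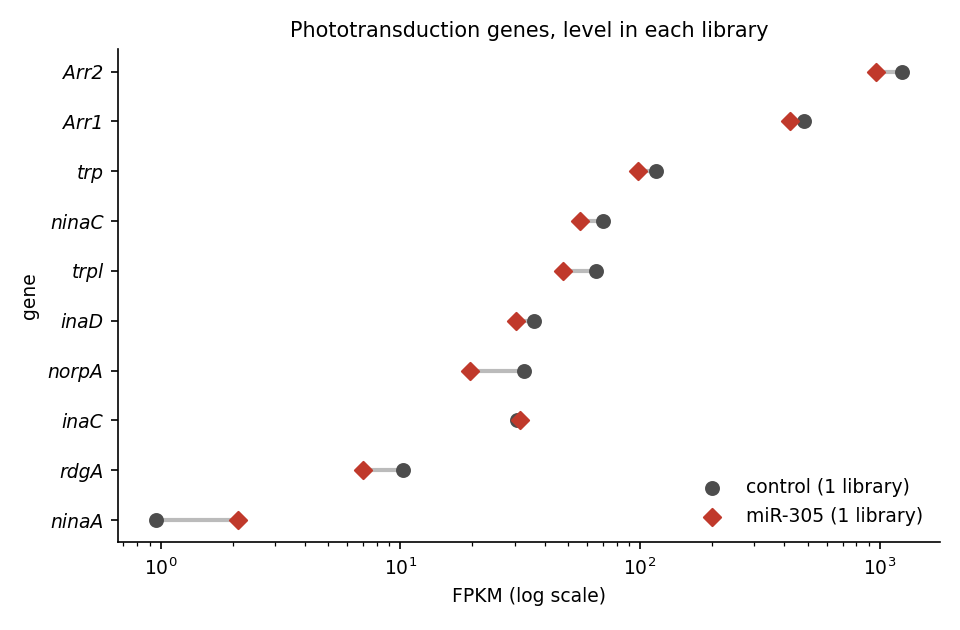
FPKM on a log axis (x) of the 10 phototransduction genes (y) in the control library (grey circles) and the miR-305 library (red diamonds), 1 library each. The red diamond lies to the left of the grey circle for 8 genes and to the right for inaC (31.7 against 30.6) and ninaA (2.11 against 0.95).

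Phospholipase C beta, the enzyme that turns the rhodopsin signal into a lipid signal, is encoded by norpA (X, 4322626 to 4365408, plus strand; 6 annotated transcripts). It had 19.6 FPKM with miR-305 and 32.7 in control, a 1.67-fold lower level (log2 ratio -0.71). This was the lowest ratio of the 10 genes, and 3.71% of all features had a lower ratio. Its FPKM lay just above that of its kinase partner inaC in the control library and below it in the miR-305 library. CG12693, which lies within an intron of norpA on the opposite strand and shares no annotated exon base with it, had 8.19 FPKM with miR-305 and 10.2 in control.

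The light-activated channels are TRP, which passes mainly calcium, and the related TRPL, which moves out of the rhabdomere in light. The trp gene (3R, 29914521 to 29920289, minus strand) had 98.6 FPKM with miR-305 and 116.9 in control, 1.19-fold lower with a log2 ratio of -0.24. The trpl gene (2R, 9753697 to 9765518, plus strand) had 47.6 and 65.4 FPKM, 1.37-fold lower with a log2 ratio of -0.45. Both channel genes were thus lower, trpl by the larger fold. The ratio of trp to trpl FPKM was 2.07 with miR-305 and 1.79 in the control library. CG1690, which lies within an intron of trpl on the opposite strand, was near equal at 40.1 and 41.8 FPKM.

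INAD, the scaffold whose PDZ domains bind TRP, phospholipase C and the eye protein kinase C, is encoded by inaD (2R, 22855688 to 22858794, minus strand). It had 30.3 FPKM with miR-305 and 36.2 in control, with a log2 ratio of -0.25. Its 3′ end shares 7 exon bases with RpL23, a ribosomal protein gene on the opposite strand that had 5212 and 5221 FPKM. The deposited locus of both is the same, and whether the counting used strand is not given. The inaD values, and the proportions to inaD below, may therefore depend on how reads were assigned. The kinase gene inaC (2R, 16898535 to 16901575, plus strand), whose product phosphorylates TRP and INAD and is needed to end the response, had 31.7 FPKM with miR-305 and 30.6 in control. Its log2 ratio of 0.05 was the nearest to 0 of the 10 genes, and it was -0.22 with both libraries at the same sum. The proportions to the scaffold gene were close between libraries for trp and ninaC and less so for inaC and norpA. Per unit of inaD FPKM, trp had 3.25 with miR-305 and 3.23 in control, and ninaC had 1.85 and 1.94. In the same order, inaC had 1.04 and 0.84, and norpA had 0.65 and 0.90.

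NINAC, a protein with a kinase domain joined to a myosin motor, resides in the rhabdomere and the adjacent cytoplasm, binds calmodulin and takes part in ending the response. The ninaC gene (2L, 7377702 to 7384344, plus strand; 4 annotated transcripts) had 56.1 FPKM with miR-305 and 70.2 in control, a log2 ratio of -0.32. The gene makes a short and a long protein form, and the gene-level FPKM does not separate them.

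The arrestins, which bind activated rhodopsin and stop it from signalling, differed most in absolute level. Arr2, the major arrestin of photoreceptors (3L, 8647261 to 8648936, minus strand), had 963 FPKM against 1243.75 in control, a difference of -281 FPKM and a log2 ratio of -0.37. Arr1 (2L, 18078269 to 18081307, plus strand) had 421 against 483 FPKM, with a log2 ratio of -0.20. Arr2 had 2.29 times the FPKM of Arr1 with miR-305 and 2.58 times in control. Arr2 lies within an intron of the peroxisomal import gene Pex7 on the opposite strand, and Pex7 itself was near 0 (0.29 and 0.18 FPKM).

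The diacylglycerol kinase encoded by rdgA (X, 8907068 to 9029476, plus strand; 11 annotated transcripts) converts diacylglycerol to phosphatidic acid, and its loss leads to rapid degeneration of the retina. It had 6.99 FPKM with miR-305 and 10.2 in control, 1.46-fold lower with a log2 ratio of -0.49, the lowest after norpA. Of all features, 8.76% had a lower ratio. The deposited locus of rdgA extends beyond the annotated gene to position 9054575. Other features share it, among them the stem-loop mir-31b, which lies in an intron of rdgA on the opposite strand and was listed at 0 with miR-305 and at 28.4 FPKM in control.

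NINAA, a cyclophilin of the endoplasmic reticulum that helps the main rhodopsin mature and leave for the rhabdomere, was the gene that stood highest. The ninaA gene (2L, 877302 to 878270, plus strand) had 2.11 FPKM with miR-305 and 0.95 in control. The FPKM ratio was 2.22 and the log2 ratio of FPKM + 1 was 0.67, which shows how far the added 1 lowers the ratio of a rare transcript. With 0.1 added instead, ninaA passed 2-fold (1.07), and with 5 added its log2 ratio was 0.26. All 871 annotated exon bases of ninaA also lie in exons of CG15824 on the opposite strand, which had 7.41 FPKM with miR-305 and 7.08 in control. The library kit keeps strand. Whether the counting used it is not given in the labels, so reads of ninaA and CG15824 may have been assigned to either gene. Without ninaA the median log2 ratio of the other 9 genes was -0.32.

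**Figure D2:**
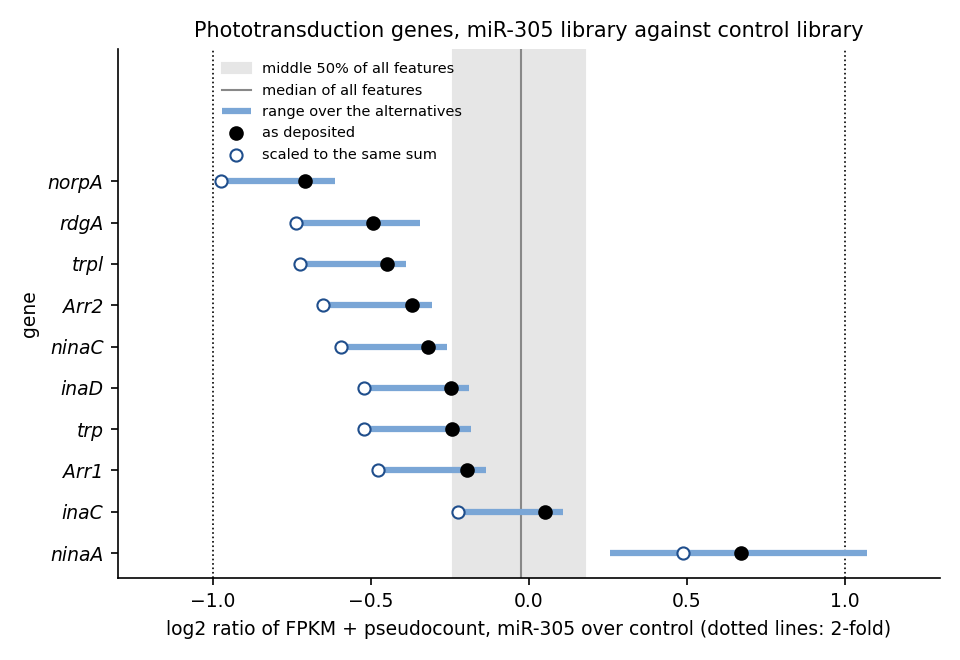
Log2 ratio of FPKM plus a pseudocount, miR-305 over control (x), for the 10 genes (y). Black points give the deposited scaling with a pseudocount of 1, open points both libraries at an equal sum, and blue bars the range over those and the other alternatives; the grey band holds the middle 50% of all features and dotted lines mark 2-fold. The black points run from -0.71 for norpA to 0.67 for ninaA, and only inaC has a bar that crosses 0.

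Chromosome and length were not set in advance as features to compare. The genes norpA and rdgA were picked here for having the lowest ratios. Both lie on the X chromosome, where 2 of the 10 genes are found, and the median log2 ratio of the 1842 expressed X-linked features was -0.04. Both have long transcripts, with 7910 nt for the longest of norpA and 10147 nt for the longest of rdgA, and the median over 1601 protein-coding features longer than 4000 nt was -0.10. The other members over 4000 nt, ninaC (5295 nt) and trp (4149 nt), had log2 ratios of -0.32 and -0.24. Both also have long 3′ untranslated regions. On the transcript with the longest coding sequence, the 3′ untranslated region was 3374 nt in norpA and 2784 nt in rdgA. It was 1113 nt in Arr1 and between 74 nt (inaD) and 230 nt (Arr2) in the other 7 genes. Over 555 protein-coding features with a 3′ untranslated region over 1500 nt the median log2 ratio was -0.13, against -0.01 over 7698 features with one of up to 500 nt. The trpl gene (121 nt) had a log2 ratio of -0.45. Arr1 (1113 nt) had one of -0.20, the smallest fold change of the 8 lower genes. Long transcripts and long 3′ untranslated regions occur together in norpA and rdgA and cannot be told apart there. Whether length plays a part in these ratios was not tested, and miR-305 seed sites in the 3′ untranslated regions were not analysed here.

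The main rhodopsin gene ninaE, whose product starts the cascade in the outer photoreceptors, did not share the lower level. It had 2685 FPKM with miR-305 and 2206 in control, a log2 ratio of 0.28, and made up 0.228% of all FPKM in each library. Set against ninaE of the same library, 9 of the 10 members were lower in the miR-305 library, as were 81.6% of all features, because ninaE itself was higher. The count is therefore given only as a description, and inaC is among the 9 although its own FPKM was not lower. Arr1 and Arr2 together had 78.3% of the ninaE FPKM in control and 51.5% in the miR-305 library. For trp these shares were 5.30% and 3.67%, for norpA 1.48% and 0.73%, and for inaC 1.38% and 1.18%. Only ninaA had a higher share in the miR-305 library, with 0.079% against 0.043%.

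**Figure D3:**
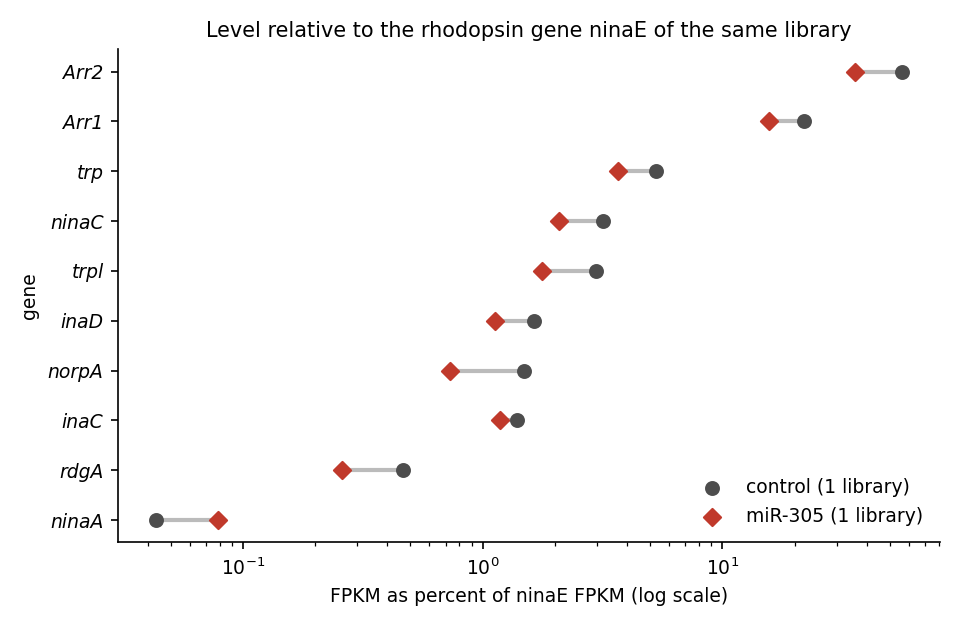
FPKM of each of the 10 genes as a percent of ninaE FPKM in the same library on a log axis (x), with control in grey circles and miR-305 in red diamonds, 1 library each. The red diamond lies to the left for 9 genes, from Arr2 (35.9% against 56.4%) to rdgA (0.26% against 0.46%), and to the right for ninaA; 81.6% of all features were also lower relative to ninaE.

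Other rhodopsin genes, expressed in the ocelli and the inner photoreceptors, lay on both sides. Of 6 expressed rhodopsin genes, ninaE included, 4 had a ratio above 0 and 2 below, with a median log2 ratio of 0.23. Rh3 had 85.5 FPKM with miR-305 and 59.5 in control, whereas Rh6 had 33.1 and 42.2, and Rh5 had 42.0 and 35.1. Rh2 had 38.3 and 33.0 FPKM, and Rh4 was near equal at 156.9 and 165.7.

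Genes from a list of other phototransduction genes had a median nearer 0 than that of the 10 members. In whole-body RNA, any of them also expressed outside the eye were not measured in photoreceptors alone, so the 2 medians are not like for like. Of 27 expressed genes, 16 had a ratio below 0 and 11 above, the median log2 ratio was -0.06, and 0 were past 2-fold in either direction (4.11% of all features). The gene with the lowest ratio was rdhB, a retinol dehydrogenase gene for the visual chromophore, at 13.4 FPKM with miR-305 and 25.01 in control (log2 ratio -0.85). Rdh, a related gene of low level, followed at 0.73 and 1.46 FPKM, and its mean reached 1 only through its higher value in control. The gene rdgC, which encodes the rhodopsin phosphatase, had 3.52 and 5.001 FPKM (log2 ratio -0.41). The highest ratio belonged to ninaD, a scavenger receptor gene for carotenoid uptake, with 70.6 against 50.3 FPKM (0.48). The next highest was that of stops, at 9.30 against 6.93 FPKM (0.38). CaMKII, a calcium-dependent kinase gene, was lower with miR-305, at 22.6 against 28.8 FPKM (-0.34). Gbeta76C, the eye G protein beta subunit gene, had 74.3 FPKM with miR-305 and 83.8 in control, and Ggamma30A, its gamma subunit gene, had 251.3 and 252.5. The lipid transfer gene rdgB had 11.7 and 13.8 FPKM, and Pis, which encodes the enzyme that remakes phosphatidylinositol, had 127.9 and 105.1. Some pathway genes shared a feature with another symbol and entered no count. The feature that holds Galphaq, the alpha subunit gene upstream of phospholipase C, had 44.0 FPKM with miR-305 and 54.4 in control, and the feature that holds the calmodulin gene Cam had 129.0 and 193.1. The feature that holds Xport, a chaperone gene for TRP and rhodopsin, had 30.1 and 35.1 FPKM.

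**Figure D4:**
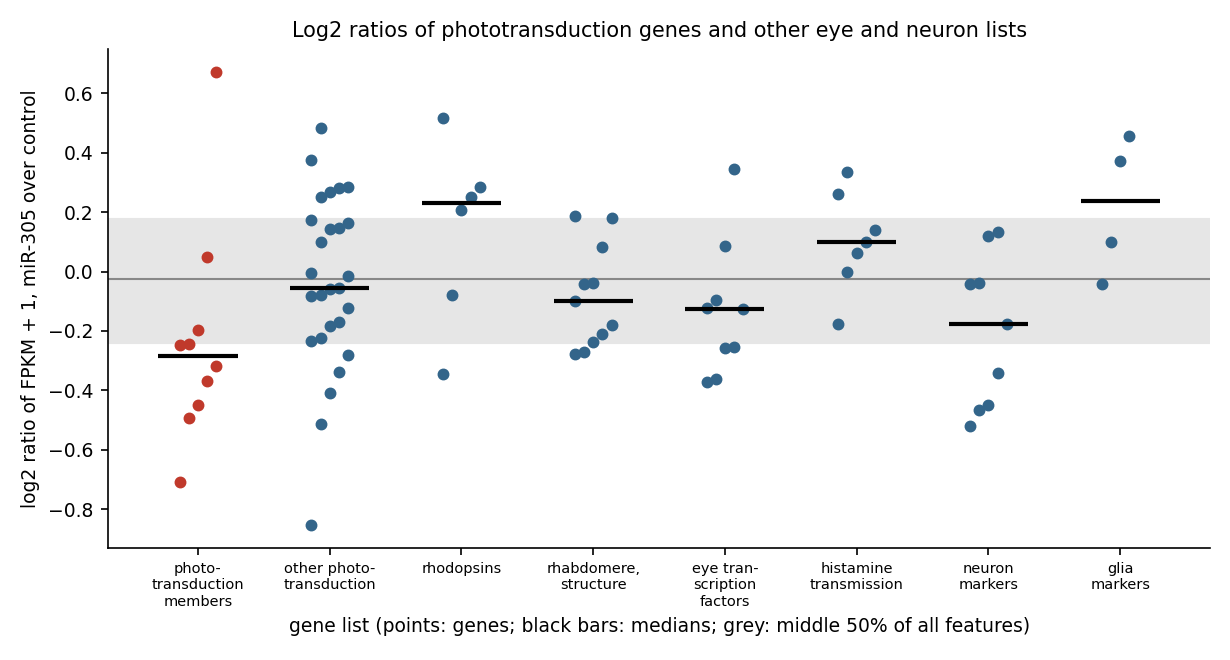
Log2 ratio of FPKM + 1, miR-305 over control (y), of the expressed genes in 8 lists (x), with a point per gene, a black bar at each median and the middle 50% of all features in grey. The 10 members in red have a median of -0.28, the other phototransduction genes of -0.06, the rhodopsins of 0.23 and the neuron markers of -0.18; ninaE stands in both the pathway list and the rhodopsin list.

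Scaling to the same sum turned the direction of inaC and changed the size of the ratio of each of the 10 genes. With the same median or the same upper quartile instead, each gene kept its direction. The median log2 ratio of the 10 genes was then -0.22 or -0.27, against -0.28 as deposited. FPKM summed to 967511 in the control library and 1176985 in the miR-305 library, where abundant accessory gland transcripts had a larger share. The 4 accessory gland marker genes had 47850 FPKM in control and 89876 in the miR-305 library, and their part in the ratios of the cascade was not tested. With both libraries at an equal sum, 9 of the 10 genes had a ratio below 0, as did 81.6% of all features, and 5 were at least 1.5-fold lower, against 16.3% of all features. The median of the 10 genes was then -0.56 and that of all features -0.27. The gap between these medians was -0.29, against -0.26 with the deposited scaling, and a constant factor on 1 library could barely move it. At the equal sum ninaE was level between the libraries, with a log2 ratio of 0.00.

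Markers of photoreceptors were present in both libraries, with 12 of 12 listed genes past the expression filter, of which 4 (norpA, trp, inaD and ninaC) are members of the cascade. Of the 12, 8 had a log2 ratio below 0 and 4 above, with a median of -0.23. The 8 that are not members had a median of 0.09, with 4 below 0. Neuron markers had a median log2 ratio of -0.18 over 9 expressed genes, of which 7 were below 0, and summed to 79.7 FPKM with miR-305 and 87.5 in control. Glia markers had a median of 0.24 over 4 genes, and summed to 363 and 282 FPKM. Whether the share of head tissue in the whole flies played a part was not tested.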

How the data were processed

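The authors deposited 1 table with an FPKM value per library and feature, per the file headers. The tools named are Cufflinks 2.2.1, TopHat2 2.0.13 and FastQC 0.11.5, with dm6 as the build, per the submitters' processing notes. Per the labels' protocols, reads were 51-bp single-end from a directional kit. Low values did not fall on clear steps of whole reads, so sequencing depth could not be recovered. FPKM from overlapping genes depends on how reads were assigned. Each of 634 features held several symbols.

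Ratios were taken on the log2 scale after adding 1 to each FPKM, miR-305 over control, for features with a mean of at least 1 FPKM. This understates differences of rare transcripts. Folds and percents without the added 1 are named as FPKM. Features were counted at 2-fold and 1.5-fold on the log2 scale. No test was possible with 1 library per group. Coordinates are 1-based on dm6, from Ensembl 115, and each of the 10 genes lies within its deposited locus. By symbol or RefSeq synonym within the locus, 14979 features (94.2%) matched. Genes named are the 10 members and, from each list, the first gene and up to 4 with the largest absolute ratio. Genes at overlapping loci, stops, CaMKII, Gbeta76C, Ggamma30A, rdgB, Pis, Rh4 and those in features of several symbols were named after their values were seen. The members and lists were chosen with earlier results of these data known. Python 3.11.15, numpy 2.4.6, pandas 2.3.3 and matplotlib 3.10.9 were used, and the calculation was tested on simulated data. The alternatives tried were no filter, pseudocounts of 0.1 and 5, a mean of at least 10 FPKM, 3 rescalings and a 1.5-fold rule.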

Additional observations from a re-analysis of the deposited data

How the results depend on the processing

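No paired analysis was possible because each group had 1 library. The number of the 10 phototransduction genes at least 2-fold lower was 0 under the 7 alternatives to pseudocount, filter and scaling. The gap between their median log2 ratio and that of all features, at -0.26, lay between -0.25 and -0.30 under the same alternatives. Scaling to the same sum moved the median of the 10 genes to -0.56, of all features to -0.27 and of the other phototransduction genes to -0.33. This scaling put 5 of the 10 genes at least 1.5-fold lower, against 16.3% of all features, and turned inaC (-0.22). The features at least 2-fold lower and higher numbered 208 and 282 as deposited, and 361 and 178 with the same sum. They numbered 102 and 175 with a pseudocount of 5, and 91 and 180 at a mean of at least 10 FPKM. With a pseudocount of 0.1, 332 were lower and 366 higher, and 1 of the 10 genes, ninaA, was among those higher. The 1.5-fold rule gave 712 lower and 716 higher, with 1 of the 10 genes each way. The median of all features turned to 0.014 at a mean of at least 10 FPKM and to 0.029 with the same median, where that of the other phototransduction genes turned to 0.0039. A mean of at least 10 FPKM left 8 of the 10 genes, without rdgA and ninaA. Unknown depth limits ninaA most, at 0.95 to 2.11 FPKM.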

Other observations

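Lists of genes for photoreceptor structure, eye regulators and histamine transmission had medians nearer 0 than the cascade. The RNA came from whole bodies, so any of these genes also expressed outside the eye do not report on photoreceptors alone. Of 11 expressed genes for the rhabdomere and photoreceptor structure, 8 had a log2 ratio below 0 and 3 above, with a median of -0.10 and 0 past 2-fold. The rhabdomere adhesion gene chp had 22.7 FPKM with miR-305 and 26.4 in control, and the polarity gene sdt had 14.2 and 17.4. The actin linker gene Moe had 81.1 and 95.9 FPKM, and the lipid phosphatase gene wun had 20.4 and 24.8. Of 9 expressed eye transcription factor genes, 7 lay below 0, with a median of -0.12. The photoreceptor regulators gl and Pph13 lay on opposite sides, at 1.02 against 1.59 FPKM for gl and 4.81 against 3.57 for Pph13. The early eye genes toy (1.82 against 2.65 FPKM) and eya (2.23 against 2.86) were lower. Of 7 expressed genes for histamine, the transmitter of photoreceptors, 5 lay above 0, with a median of 0.10. Hdc, which encodes the histamine-making enzyme, had 2.35 FPKM with miR-305 and 2.21 in control. The recycling transporter gene CarT, listed as CG9317, had 2.87 and 2.07 FPKM, and the histamine receptor gene HisCl1 had 2.29 and 1.74. Balat, listed as CG3790, had 2.70 and 2.36 FPKM, and t, whose product recovers histamine from its conjugate, had 43.2 and 48.9.

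A list of lens and cone cell products held 5 expressed genes, of which 4 had a log2 ratio below 0 and 1 above. In it, retinin, the lens crystallin gene and CG7298 had lower ratios than norpA, the lowest of the 10 phototransduction genes. The corneal protein gene retinin had 120 FPKM with miR-305 and 225 in control, and the lens crystallin gene, listed under its older symbol Cry, had 2.38 and 5.95 (log2 ratios -0.90 and -1.04). Cpr72Ec, a cuticle protein gene in the same list, was nearer to equal at 230.2 and 264.7 FPKM. The list also held CG7298 (1.04 against 35.9 FPKM, log2 ratio -4.17) and Cpr66D (11.1 against 4.69 FPKM, log2 ratio 1.09). The place of both in the lens is not established here, and the 5 expressed genes had a median of -0.90.

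Marker lists of other tissues are given as values. The median log2 ratio was -0.36 over 9 testis genes, 0.90 over 4 accessory gland genes, -0.06 over 5 muscle genes, 0.79 over 2 fat body genes and 1.28 over 4 gut genes. All but the accessory gland list had genes on both sides of 0. Ratios ran from -0.99 to 0.68 for testis and from -0.15 to 0.96 for muscle. They ran from -0.09 to 1.68 for fat body and from -2.07 to 1.91 for gut.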
